A study of Sus scrofa with 15 samples.

Results

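The Tg1 mutant of PKD2 was compared with wild-type PKD2 (WT) in LLC-PK1 cells, an established pig line with features of kidney proximal tubule. The comparison sets 6 of the 15 RNA-seq libraries against each other, the 3 labelled Tg1 and the 3 labelled WT, while all 15 entered the fit and set the spread, and every gene with a mean CPM of at least 2 (CPM, counts scaled to 1 common library total) over the 15 libraries was tested, 11553 of 16660 genes in the table. Tg1 cells received a plasmid with the human PKD2 coding sequence that carries the change c.A1532T, p.D511V, and WT cells received the same plasmid without a mutation. Both sequences were tagged with FLAG and driven by the CAG promoter, which is active in most cell types, and both plasmids carried floxP-neo-pH11. The other groups, with 3 libraries each, were the mutants Tg2 (c.T1967G, p.L656W) and Tg3 (c.C2224T, p.R742X) and the empty plasmid (NC). The transfections were transient, in separate wells of 1 cell line, and the cells kept their own pig PKD2. The 3 libraries of a group are therefore wells and not animals, and p-values measure the spread between wells. Levels of PKD2 and PKD1 transcripts are not analysed here, so the dose of plasmid in each library is not given.

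PKD2 encodes polycystin-2, a cation channel of the TRP family that sits in the endoplasmic reticulum and in the primary cilium and works together with polycystin-1, the product of PKD1. Loss of either protein causes autosomal dominant polycystic kidney disease, in which tubule cells show altered calcium release, raised cAMP signalling through protein kinase A, and growth into fluid-filled cysts. The mutation in Tg1 replaces an aspartate, and the mutant is regarded as a dominant-negative form of the channel. The comparison asks which genes of the cell differ when the overexpressed protein carries this change and when it does not.

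The identity of the cells was checked against marker genes. All 19 renal epithelial markers in the table had a median of 2 or more CPM over the 6 libraries, among them LRP2 with a median of 254 CPM and the transporter SLC5A2 with 80.9 CPM. Their summed level was 6470 to 6770 CPM in Tg1 and 6320 to 6780 CPM in WT. The endothelial marker KDR was at 0 in the 6 libraries, and the 4 endothelial markers in the table summed to 1.23 to 1.4 CPM in Tg1 and 1.14 to 1.54 CPM in WT. Of 6 leukocyte markers PTPRC reached at most 0.0452 CPM, but 3 had a median of 2 or more CPM, CD3E with 18.7 to 22.5 CPM, CD14 with 7 to 9.36 CPM and CD68 with a median of 2.08 CPM, and the list summed to 31.7 to 34.3 CPM in Tg1 and 32.6 to 33.5 CPM in WT. Of 7 fibroblast markers in the table, COL1A2 alone reached 2 CPM, with 865 to 1070 CPM.

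Total counts ran from 20216200 to 26132196 in the 15 libraries. The WT libraries did not resemble each other equally. The chi-square statistic per degree of freedom between counts was 5.76 for WT replicates 1 and 3, but 25.8 and 46.6 for WT replicate 2 against replicates 1 and 3, while the 3 pairs of Tg1 libraries gave 3.29 to 13.4. On the first principal component, which held 51% of the variance, WT replicate 2 lay at 6.84 and the other WT libraries at -15.5 and -25.2, with the Tg1 libraries from -7.26 to 5.83. Of the 15 libraries, WT replicate 3 at -25.2 lay farthest out on this component. Results are given with all libraries and also without WT replicate 2 where the call of a named gene changes. That library was singled out after its values were seen. Leaving out any other Tg1 or WT library left 0 genes called, so the calls by gene come from the omission that added calls. Leaving out a library that lies apart from its group shifts the differences by itself, so those calls are a description. Nothing in the labels sets WT replicate 2 apart from the other WT libraries.

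Tg1 differed from WT in few genes. With the criteria for a differentially expressed gene (DEG), an adjusted p of at most 0.05 and an absolute log2 fold change of at least 0.26, 8 genes were lower in Tg1 and 0 were higher by edgeR's quasi-likelihood test, which is 0.0692% of the genes tested. The calls rest on the spread shared by the 15 libraries: with the 6 Tg1 and WT libraries alone 0 genes were called and the smallest adjusted p was 0.428. The 8 DEGs were PRKAR2A, AFF4, DMXL1, PIK3C2A, LRP6, ITPR2, CCDC186 and a gene without a symbol, ENSSSCG00000015531. At an unadjusted p under 0.05 stood 1806 genes, 15.6% of those tested, 776 of them (6.72% of those tested) higher and 1030 (8.92%) lower in Tg1. DESeq2 called 9 genes higher and 68 lower, the 8 DEGs among them. The median log2 fold change over all genes was 0.00495, with quartiles at -0.0787 and 0.0804. No DEG remained when Tg1 replicate 1, 2 or 3 or WT replicate 1 or 3 was left out, and 852, 7.37% of those tested, were found without WT replicate 2.

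**Figure D1:**
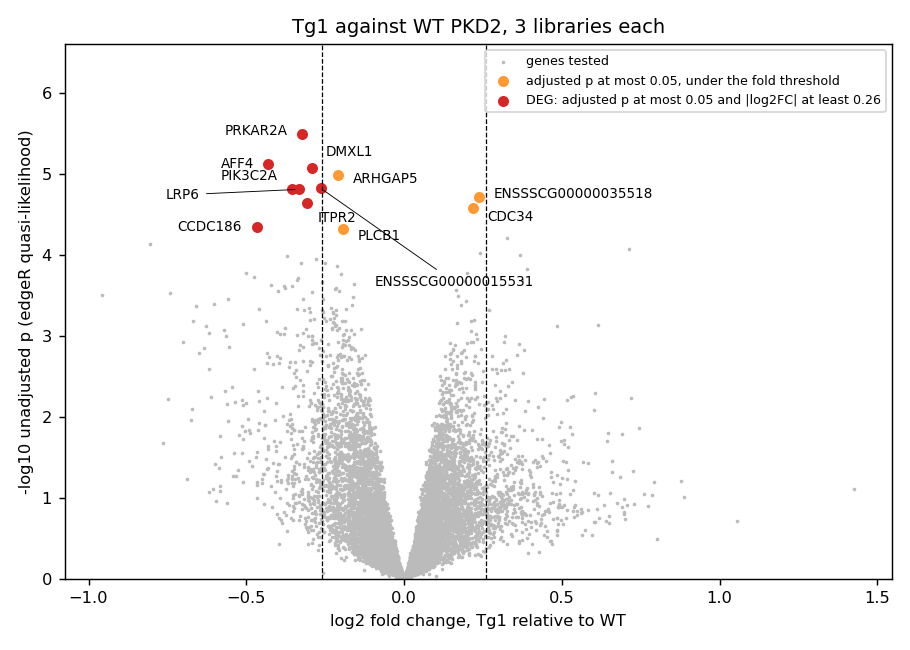
Each point is 1 of the 11553 genes, with the log2 fold change of Tg1 relative to WT on the horizontal axis and -log10 of the unadjusted p on the vertical axis; dashed lines mark 0.26 in either direction. The 8 DEGs (red) lie on the left, and of the 4 further genes with an adjusted p of at most 0.05 (orange) 2 lie on each side.

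In RNA from a whole well, a lower level in every cell and a lower share of cells with the transcript cannot be told apart. The DEG with the smallest p was PRKAR2A, a regulatory subunit that holds the catalytic subunits of protein kinase A inactive until cAMP binds. Its level, in CPM after TMM normalization as for all levels by gene here, was 58.0, 61.5 and 60.2 in Tg1 replicates 1, 2 and 3 and 75.7, 71.1 and 78.1 in WT replicates 1, 2 and 3. The groups, 3 libraries against 3, did not overlap, and the log2 fold change was -0.32 ± 0.044 (SE) with an adjusted p of 0.0258 by edgeR. Each SE given here was obtained from the fold change and edgeR's test statistic, so it uses the spread shared by the 15 libraries. Among the 23 tested genes of the cAMP and protein kinase A list, which covers adenylyl cyclases, phosphodiesterases, anchoring proteins and kinase subunits, PRKAR2A was the single DEG. The list held 16 lower and 7 higher values and a median log2 fold change of -0.0859, and 7 of its genes were lower and 1 higher at an unadjusted p under 0.05, against 8.92% and 6.72% of all genes. The next genes on this list were the adenylyl cyclase ADCY7 with a log2 fold change of -0.22 (adjusted p = 0.181), the transcription factor CREB1 with -0.18 (adjusted p = 0.213) and the phosphodiesterase PDE1A with -0.25 (adjusted p = 0.218), none of which passed the test.

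ITPR2, a receptor for inositol trisphosphate that releases calcium from the endoplasmic reticulum, was at 49.6, 53.9 and 56.3 CPM in Tg1 and at 63.6, 65.9 and 68.1 CPM in WT. All Tg1 libraries lay under all WT libraries, and ITPR2 fell by 0.31 on the log2 scale (SE 0.050, adjusted p = 0.0297 by edgeR). PLCB1, a phospholipase C that makes inositol trisphosphate, was at 218, 214 and 212 CPM in Tg1 and 247, 239 and 250 CPM in WT. Its adjusted p of 0.0465 passed the threshold, but its log2 fold change of -0.19 did not reach 0.26. NFAT5, a transcription factor of the NFAT family known for the response to osmotic stress, had a log2 fold change of -0.42 (adjusted p = 0.0776), and PRKCA, a calcium-dependent protein kinase C, had -0.20 (adjusted p = 0.132). NFAT5 was a DEG without WT replicate 2 with -0.51 (adjusted p = 0.00653). Over the 35 calcium genes tested, 23 values were lower and 12 higher, 9 were lower and 1 was higher at an unadjusted p under 0.05 (8.92% and 6.72% of all genes), and the median was -0.0267. The further receptor on the list with a value near these, ITPR3, was at -0.16 on the log2 scale with an adjusted p of 0.231.

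PIK3C2A, a class II phosphoinositide 3-kinase that works in endocytosis and at the base of the cilium, was at 49.0, 52.0 and 53.5 CPM in Tg1. In WT it was at 69.0, 59.7 and 69.2 CPM, with replicate 2 closest to Tg1 but still above it. PIK3C2A fell by 0.36 on the log2 scale (SE 0.055, adjusted p = 0.0258 by edgeR). Of the 39 tested genes of growth factor receptors and phosphoinositide 3-kinase signalling it was the 1 DEG. In that list 27 values were lower and 12 higher, 13 were lower and 3 higher at an unadjusted p under 0.05 (8.92% and 6.72% of all genes), and the median was -0.0924. CBL, a ubiquitin ligase that acts on receptor tyrosine kinases, had a log2 fold change of -0.38 (adjusted p = 0.0776), and EGFR, the receptor for epidermal growth factor, had -0.25 (adjusted p = 0.0945). Both were DEGs without WT replicate 2, CBL with -0.44 (adjusted p = 0.00965) and EGFR with -0.29 (adjusted p = 0.0177).

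LRP6, a co-receptor for Wnt ligands, stood at 32.5, 34.4 and 36.4 CPM in Tg1 and at 42.5, 43.0 and 44.8 CPM in WT. The log2 fold change of LRP6 was -0.33 ± 0.052 (SE) with an adjusted p of 0.0258, and the groups were apart by more than the range within either of them. The other Wnt and planar polarity genes gave no DEG. Of 30 tested, LRP6 included, 21 values were lower and 9 higher, and the median was -0.0797. At an unadjusted p under 0.05, 8 were lower and 1 higher (8.92% and 6.72% of all genes). The Wnt receptor FZD4 had -0.33 (adjusted p = 0.150), with 84.6, 76.8 and 73.7 CPM in Tg1 and 103, 82.4 and 110 CPM in WT, where replicate 2 lay among the Tg1 values, and -0.44 without that library (adjusted p = 0.00914). TNKS, a tankyrase that marks axin for degradation, had -0.21 (adjusted p = 0.120), and the kinase GSK3B had -0.13 (adjusted p = 0.137).

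DMXL1, a large protein of the rabconnectin family that is linked to assembly of the vacuolar proton pump, was at 85.5, 92.1 and 95.3 CPM in Tg1 and at 116, 108 and 111 CPM in WT. It fell by 0.29 on the log2 scale (SE 0.043, adjusted p = 0.0258 by edgeR). The other genes of the pump and of lysosomes did not pass. Of 32 tested, DMXL1 included, 21 values were lower and 11 higher with a median of -0.017. At an unadjusted p under 0.05, 8 of the 32 were lower and 0 higher (8.92% and 6.72% of all genes). WDR7, the partner of this protein family, was at -0.18 (adjusted p = 0.172), and ATP6V1A, a catalytic subunit of the pump, was at -0.11 (adjusted p = 0.171).

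AFF4, a scaffold of the super elongation complex that releases paused RNA polymerase II, had one of the larger differences among the DEGs. It was at 90.2, 96.6 and 100 CPM in Tg1 and at 135, 119 and 132 CPM in WT, where replicate 2 was again the lowest. AFF4 fell by 0.43 on the log2 scale (SE 0.063, adjusted p = 0.0258 by edgeR). CCDC186, a coiled-coil protein needed for maturation of dense core vesicles, was at 13.5, 15.5 and 15.1 CPM in Tg1 and at 21.4, 18.2 and 21.5 CPM in WT. Its log2 fold change was -0.47 ± 0.081 (SE) with an adjusted p of 0.0465. ENSSSCG00000015531 was at 38.81, 39.99 and 39.00 CPM in Tg1 and 46.1, 46.5 and 48.8 CPM in WT, a log2 fold change of -0.26 (SE 0.041, adjusted p = 0.0258) that only just reached the fold criterion.

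**Figure D2:**
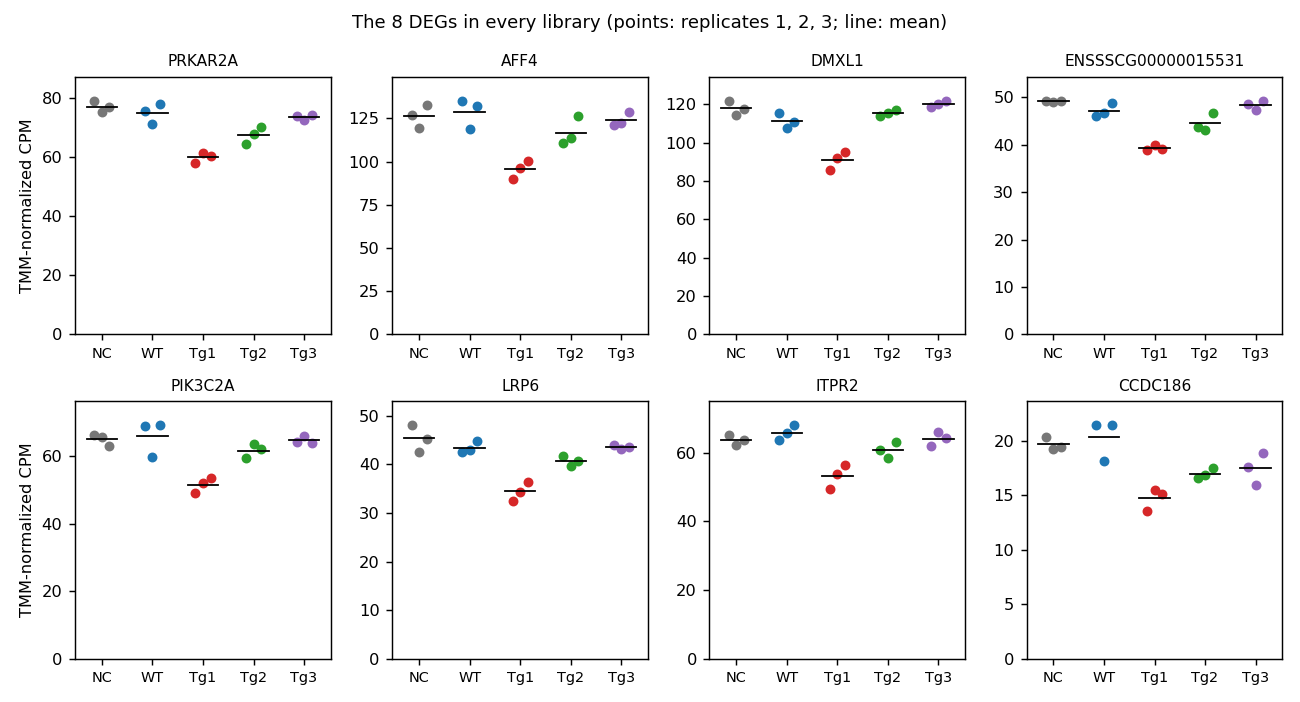
Levels of the 8 DEGs in TMM-normalized CPM (vertical axes, from 0) in the 15 libraries, grouped along the horizontal axes; points are replicates 1, 2 and 3 from left to right and lines are group means. In each panel the 3 Tg1 points (red) lie under the 3 WT points (blue), and WT replicate 2 is the lowest WT point for PRKAR2A, AFF4, DMXL1, PIK3C2A and CCDC186.

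The 8 DEGs were lower in Tg1 than in every other library, not WT alone: for 8 of 8, the 3 Tg1 libraries lay under the 12 others, an order that 243 genes, 2.1% of those tested, showed, while 129 genes, 1.12%, showed the opposite order. The order against WT was part of how they were called, and the comparison with NC uses the same Tg1 libraries by which they were picked. Against the empty plasmid 138 genes, 1.19%, were DEGs, and PRKAR2A had a log2 fold change of -0.36 (adjusted p = 0.00454), DMXL1 -0.38 (adjusted p = 0.00454), LRP6 -0.39 (adjusted p = 0.00518) and AFF4 -0.40 (adjusted p = 0.00898). WT itself did not pass the test against NC for any gene, with 0 DEGs by edgeR and 524 genes, 4.54%, at an unadjusted p under 0.05. The study, which used DESeq2, does report genes that were higher in WT than in NC. In WT against NC the values of these genes were -0.04 for PRKAR2A, -0.08 for DMXL1, -0.06 for LRP6 and 0.03 for AFF4 on the log2 scale.

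Beyond the DEGs, 4 genes had an adjusted p of at most 0.05 with a change under the fold criterion, which makes 12 genes or 0.104% by adjusted p alone, and are named after their values were seen. ARHGAP5 was at 102, 104 and 105 CPM in Tg1 and 121, 118 and 120 CPM in WT, with a log2 fold change of -0.21 (adjusted p = 0.0258). PLCB1 is given above. CDC34, the ubiquitin-conjugating enzyme of SCF ligases, was higher, at 72.3, 72.0 and 72.6 CPM in Tg1 against 62.3, 61.7 and 62.4 CPM in WT, with a log2 fold change of 0.22 (adjusted p = 0.031). ENSSSCG00000035518, which has no symbol, had a log2 fold change of 0.24 (adjusted p = 0.0282).

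Since no gene was called higher, the 8 genes with a symbol, libraries that did not overlap, a log2 fold change of at least 0.26 and the smallest p are given as values. Such an order with that fold was found for 99 genes in the higher direction, 0.857% of those tested, and 205 in the lower, 1.77%. POU4F1, a POU-domain transcription factor best known from sensory neurons, was at 5.35, 4.37 and 4.74 CPM in Tg1 and at 3.17, 3.03 and 2.63 CPM in WT (log2 fold change 0.71 ± 0.13, SE; adjusted p = 0.0663). TRMT61A, the catalytic subunit of a tRNA methyltransferase, was at 28.6, 31.3 and 30.3 CPM against 23.8, 24.6 and 23.4 CPM (0.33 ± 0.058; adjusted p = 0.0546). IFT20, a carrier of cargo from the Golgi into the cilium on which polycystin-2 depends for its transport, was at 14.1, 13.5 and 13.8 CPM against 10.4, 11.2 and 10.4 CPM (0.37 ± 0.069; adjusted p = 0.0672). TSPO of the outer mitochondrial membrane had 0.38, the matrix protein EGFLAM 0.39, the membrane remodelling protein CHMP6 0.27, the vesicle protein VAMP5 0.32 and the metallothionein MT1X 0.36, with adjusted p from 0.0746 to 0.108. Without WT replicate 2 these 8 genes were DEGs, for example POU4F1 with 0.73 (adjusted p = 0.0177) and MT1X with 0.48 (adjusted p = 0.00856).

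The lower gene nearest to the threshold was LPP, a LIM protein of focal adhesions. It was at 12.6, 18.8 and 19.7 CPM in Tg1 and at 31.6, 26.02 and 31.9 CPM in WT, a log2 fold change of -0.81 ± 0.15 (SE) with an adjusted p of 0.061. Without WT replicate 2 the log2 fold change of LPP was -0.89 with an adjusted p of 0.00796.

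The DEGs of Tg1 were set beside the other mutants. The comparisons of the mutants share the same WT libraries, so their values are given side by side. For DMXL1 the log2 fold change against WT was -0.29 in Tg1, 0.05 in Tg2 and 0.11 in Tg3. AFF4 had -0.43 in Tg1, -0.14 in Tg2 and -0.05 in Tg3, and LRP6 had -0.33, -0.10 and 0.003 in the same order. CCDC186 was lower than WT in all the mutants, with -0.47 in Tg1, -0.26 in Tg2 and -0.22 in Tg3. Whether Tg1 differed from the others was tested as Tg1 minus the mean of Tg2 and Tg3, in which WT cancels. The DEGs were picked by their Tg1 libraries against WT, and the same Tg1 libraries enter this contrast. The p-values of the DEGs in it are therefore not independent of how they were picked. By this test 112 genes, 0.969% of those tested, differed, 25 (0.216%) higher and 87 (0.753%) lower in Tg1. DMXL1 differed with -0.37 (adjusted p = 0.00123), AFF4 with -0.33 and PIK3C2A with -0.29 (adjusted p = 0.0119 and 0.012), LRP6 with -0.29 (adjusted p = 0.0119), PRKAR2A with -0.24 (adjusted p = 0.0119), ITPR2 with -0.23 (adjusted p = 0.0194) and ENSSSCG00000015531 with -0.24 (adjusted p = 0.009). CCDC186 did not pass, with -0.23 and an adjusted p of 0.0931, and neither did PLCB1 with -0.06 (adjusted p = 0.281) or CDC34 with 0.06 (adjusted p = 0.304). Without Tg1 replicate 1 the number of DEGs in this test was 2.

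**Figure D3:**
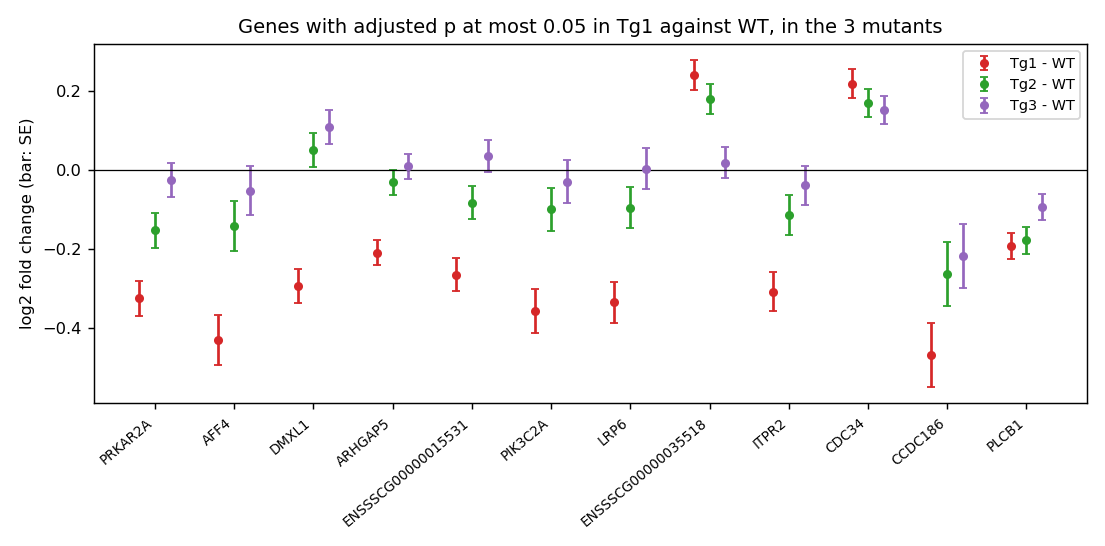
Log2 fold change against WT (vertical axis; bars are standard errors) of the 12 genes with an adjusted p of at most 0.05 in Tg1 against WT, for Tg1 (red), Tg2 (green) and Tg3 (purple); the 3 comparisons share the WT libraries. DMXL1 was at -0.29 in Tg1 and above 0 in the other mutants, while PLCB1 and CDC34 had values of 1 sign in all 3.

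Gene lists were described by their counts and medians, without a test of the list. The lists were written with earlier results of these data known. Their shares beside those of all genes, here and above, are therefore a description. The list most on the lower side was that of large chromatin and transcription regulators. Of 49 tested, 47 values were lower and 2 higher in Tg1, the median log2 fold change was -0.153, and 26 were lower at an unadjusted p under 0.05 against 8.92% of all genes. AFF4 was the DEG, 2.04% of the list. In 20 of the 49 genes the Tg1 libraries lay under the WT libraries without overlap, an order seen in 8.45% of all genes, and in 16.9% when both directions are counted. The helicase CHD6 had a log2 fold change of -0.33 (adjusted p = 0.0776), the bromodomain protein PHIP -0.29 and the methyltransferase-like SETD5 -0.23 (both adjusted p = 0.0945). The histone methyltransferases KMT2A and KMT2C were at -0.40 and -0.38 and the related KMT2E at -0.29 (adjusted p = 0.101 for each), with KMT2A at 34.02, 40.2 and 42.7 CPM in Tg1 and 50.04, 49.2 and 55.5 CPM in WT. The list took 0.415% to 0.429% of all counts in Tg1 and 0.437% to 0.503% in WT. Without WT replicate 2 these 6 genes were DEGs, from -0.27 for SETD5 (adjusted p = 0.0116) to -0.44 for KMT2C (adjusted p = 0.0188), with CHD6 at -0.41 (adjusted p = 0.00653). KMT2A, KMT2C, KMT2E and ASH1L were added as the next 4 of the list by unadjusted p. ASH1L was not a DEG without WT replicate 2, with -0.23 (adjusted p = 0.0161 by edgeR), under the fold criterion. In that fit 14 of the 49 were DEGs, 28.6%, all lower, against 3.12% of all genes called lower in that fit. DESeq2 with all libraries called 7 of the 49, all lower, 14.3% against 0.589% of all genes called lower.

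Genes of adhesion, cilium, mitosis and matrix held no DEG by edgeR with all libraries. DESeq2 called 5 of the 53 adhesion genes lower (9.43%) and 1 of the 30 matrix genes lower (3.33%). Of the 47 cilium genes it called 1 higher and 1 lower (2.13% each), and of the mitosis genes 0. Over all genes DESeq2 called 0.0779% higher and 0.589% lower. Of 53 genes of actin, junctions and focal adhesions, 33 values were lower and 20 higher, with 14 lower and 3 higher at an unadjusted p under 0.05 (8.92% and 6.72% of all genes) and a median of -0.069. The collagen receptor ITGA2 was at -0.36 (adjusted p = 0.0776) and the actin oxidase MICAL2 at -0.29 (adjusted p = 0.0776), with MICAL2 differing from the mean of Tg2 and Tg3 by -0.41 (adjusted p = 0.00573). Both were DEGs when WT replicate 2 was left out, ITGA2 with -0.44 (adjusted p = 0.00653) and MICAL2 with -0.32 (adjusted p = 0.0177). Of 47 cilium and basal body genes, 34 values were lower and 13 higher. At an unadjusted p under 0.05, 11 were lower and 1 higher (8.92% and 6.72% of all genes). PKHD1, the gene of autosomal recessive polycystic kidney disease, was at 132, 134 and 136 CPM in Tg1 and at 173, 147 and 171 CPM in WT, a log2 fold change of -0.29 with an adjusted p of 0.108, and -0.36 with an adjusted p of 0.0114 without WT replicate 2. The cilium motor subunit KIF3A was at -0.18 (adjusted p = 0.158). Of 41 genes of mitosis and DNA replication, 11 were lower and 0 higher at an unadjusted p under 0.05 (8.92% and 6.72% of all genes). The spindle motor KIF11 had a log2 fold change of -0.26 (adjusted p = 0.0868) and the centriole kinase PLK4 had -0.22 (adjusted p = 0.0903). Of 30 matrix and protease genes 24 values were lower and 6 higher. At an unadjusted p under 0.05, 6 were lower and 0 higher (8.92% and 6.72% of all genes). Fibronectin, FN1, was at -0.26 (adjusted p = 0.0776). FN1 was a DEG without WT replicate 2 with -0.31 (adjusted p = 0.00653), and so was KIF11 with -0.27 (adjusted p = 0.0234).

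The lists of stress, hypoxia, mitochondrial and renal marker genes held no DEG. The 27 genes of stress-activated MAP kinases had a median of -0.0444 and no DEG, with the kinase TAOK1 at -0.38 (adjusted p = 0.0776), and -0.46 without WT replicate 2 (adjusted p = 0.00653). The 36 genes of hypoxia and glycolysis had a median of -0.00254, and the 13 mitochondrially encoded genes had -0.105, with 2.86% to 3.15% of all counts in Tg1 and 2.87% to 3.25% in WT. Of 29 genes of chaperones and the unfolded protein response, 24 values were higher and 5 lower in Tg1, with a median of 0.0836 and no DEG. At an unadjusted p under 0.05, 9 of the 29 were higher and 3 lower (6.72% and 8.92% of all genes), and in 11 the Tg1 libraries lay above the WT libraries without overlap (8.45% of all genes). The chaperone HSP90B1 of the endoplasmic reticulum was at 483, 475 and 460 CPM in Tg1 and 420, 441 and 429 CPM in WT (log2 fold change 0.14, adjusted p = 0.172), and the stress target CHAC1 had 0.54 (adjusted p = 0.170). The stress sensor EIF2AK3 had -0.27 (adjusted p = 0.156). CHAC1 was a DEG without WT replicate 2 with 0.68 (adjusted p = 0.0333) and EIF2AK3 with -0.33 (adjusted p = 0.0272). Renal markers were mixed, 10 higher and 13 lower of 23, with WFDC2 at 0.20 (adjusted p = 0.0772) and the cadherin CDH6 at -0.32 (adjusted p = 0.120), and at -0.43 without WT replicate 2 (adjusted p = 0.00502).

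**Figure D4:**
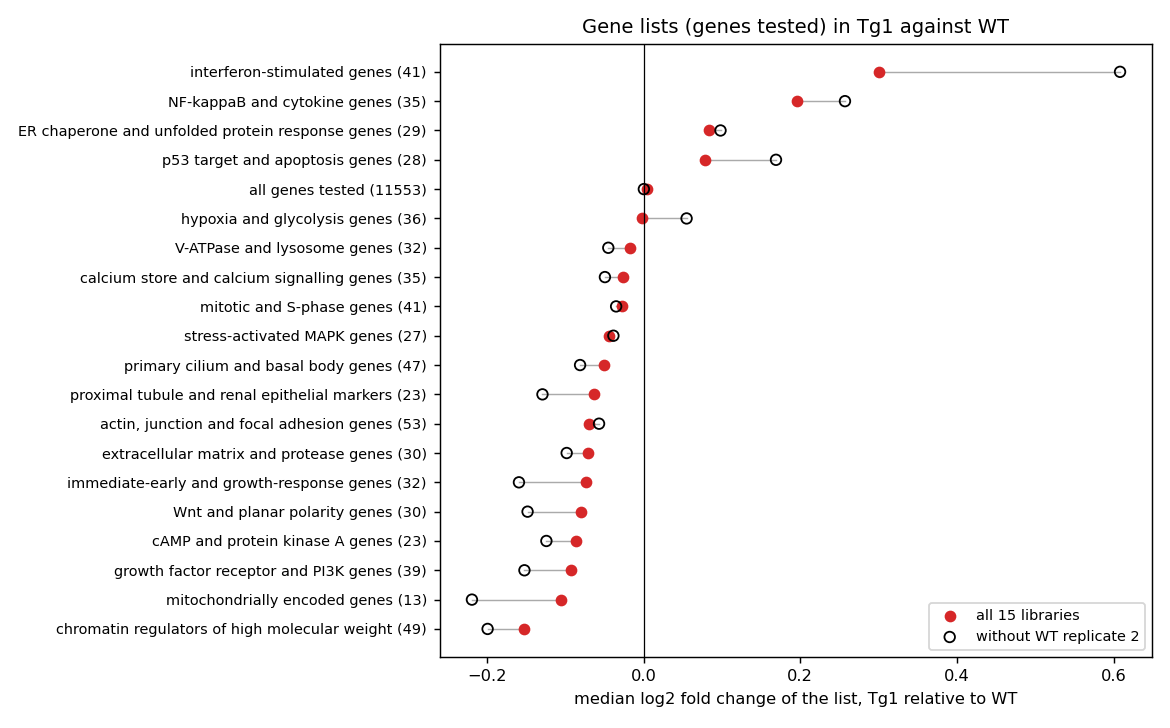
Median log2 fold change of Tg1 relative to WT (horizontal axis) of the 19 gene lists with 10 or more genes tested and of all genes tested, with all 15 libraries (red) and without WT replicate 2 (open); the number of genes tested stands in brackets. The interferon-stimulated list moved from 0.301 to 0.608 and the chromatin list from -0.153 to -0.199.

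Interferon-stimulated genes, which cells switch on after sensing foreign nucleic acid or interferon, had the highest median of the lists with 10 or more genes. All 41 values were higher in Tg1 and the median was 0.301, but 0 were DEGs by edgeR. At an unadjusted p under 0.05, 2 of the 41 were higher, against 6.72% of all genes. In 0 of the 41 did the groups stand apart, against 8.45% of all genes in the higher direction. IFIT1, an RNA-binding effector, was at 3369, 4761 and 4810 CPM in Tg1 and at 2517, 4938 and 1764 CPM in WT (log2 fold change 0.49 ± 0.30, SE; adjusted p = 0.44). RSAD2, the antiviral enzyme viperin, was at 3333, 4660 and 4937 CPM in Tg1 and 2808, 5276 and 2036 CPM in WT (adjusted p = 0.559). WT replicate 2 was above the Tg1 libraries for IFIT1, RSAD2 and MX2, and the other WT libraries were under them. These genes and B2M were named after the data were seen, as the most abundant of the list in WT. The list took 3.04%, 3.83% and 3.93% of all counts in Tg1 and 2.59%, 4.04% and 2.06% in WT. Replicate 2 also had the highest share of its group in NC (3.53%) and Tg3 (4.28%), but not in Tg1 or Tg2.

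Without WT replicate 2, 38 of the 41 interferon-stimulated genes were DEGs, all higher, 92.7% against 4.26% of all genes called higher in that fit, and the list median was 0.608. IFIT1 then had a log2 fold change of 1.01 (adjusted p = 0.0233) and RSAD2 0.83 (adjusted p = 0.0388). MX2 was also a DEG there with 0.66 (adjusted p = 0.0317 by edgeR). B2M was not, with 0.23 (adjusted p = 0.0888 by edgeR). With 1 surrogate variable in the model, a factor estimated from the counts that was added after seeing the data, the list median was 0.0387 and 0 were DEGs. DESeq2 also called 0 of the 41, and limma voom with library weights, which gave WT replicate 2 the lowest weight of the 15 libraries, called 37 higher, 90.2% against 6.07% of all genes called higher in that fit. WT replicate 2 had the highest share of this list in WT, so leaving it out or weighting it down widens these differences by itself. The counts in both fits are therefore a description. The part of WT replicate 2 in these differences was not tested beyond these fits.

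Of 35 genes of NF-kappaB and cytokines tested, 32 values were higher and 3 lower with a median of 0.196 and no DEG, and without WT replicate 2 there were 16 DEGs, all higher, 45.7% against 4.26% of all genes called higher. RELB, a subunit of NF-kappaB, was at 51.3, 55.3 and 58.3 CPM in Tg1 and 47.8, 48.5 and 45.2 CPM in WT, which did not overlap (log2 fold change 0.22, adjusted p = 0.108). WT replicate 2 was close to the other WT libraries for RELB, and the value without it was 0.24. SOCS3, a feedback inhibitor of cytokine receptors, was at 167, 185 and 190 CPM against 139, 175 and 127 CPM (0.30, adjusted p = 0.172), and a DEG without WT replicate 2 with 0.44 (adjusted p = 0.00653). In the p53 and apoptosis list 19 values were higher and 9 lower with no DEG, and 8 higher and 1 lower gene were DEGs without WT replicate 2, 28.6% and 3.57% of the list against 4.26% and 3.12% of all genes.

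**Figure D5:**
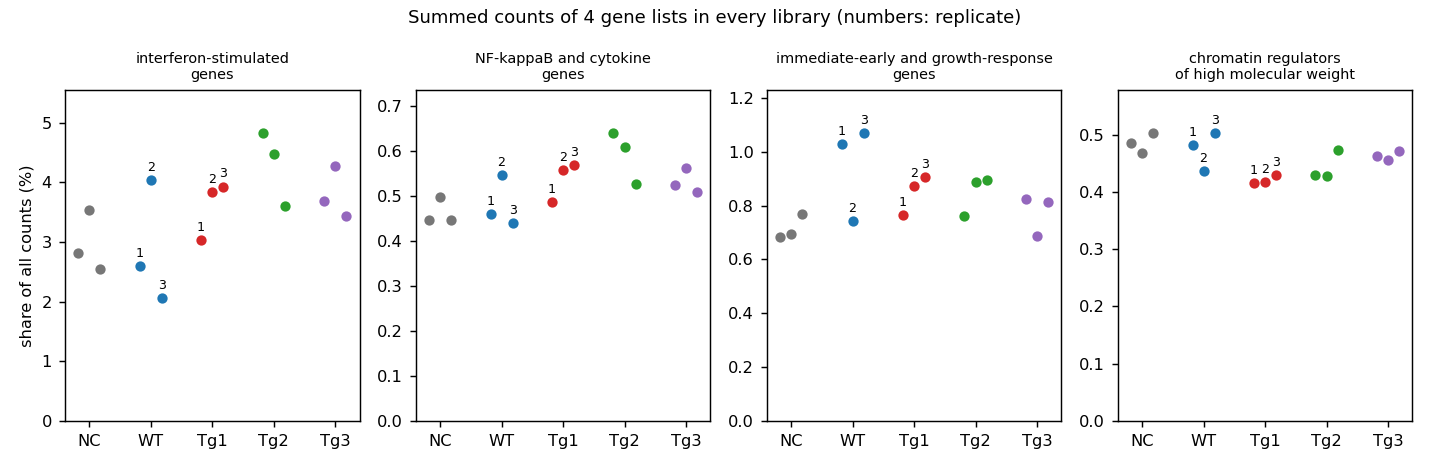
Share of all counts (vertical axes, in %, from 0) taken by 4 gene lists in each library, with groups along the horizontal axes and the replicate number over the WT and Tg1 points. For the interferon-stimulated list WT replicate 2 (4.04%) lies among the Tg1 libraries (3.04% to 3.93%) and the other WT libraries lie under them.

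MYC, ADM and IER3, 3 genes that the study singles out, did not pass the test between Tg1 and WT. The study reports them as higher than with the empty plasmid in WT and in each mutant, by RNA-seq and qRT-PCR. That comparison is not the one of Tg1 against WT made here. MYC, a transcription factor of growth, was at 258, 285 and 313 CPM in Tg1 and 301, 262 and 273 CPM in WT (log2 fold change 0.04 ± 0.067, SE; adjusted p = 0.812). The vasoactive peptide ADM had 0.18 ± 0.093 (adjusted p = 0.369) and the early response gene IER3 had -0.04 ± 0.091 (adjusted p = 0.841), and in each of the 3 genes the libraries overlapped. Of the other genes taken from the study's lists, BHLHE40, PLAU, TRIB1, GADD45G, GADD45B, AMOTL2 and KLF6, log2 fold changes ran from -0.27 for KLF6 to -0.09 for BHLHE40 and none passed. PLAU was a DEG without WT replicate 2 with -0.28 (adjusted p = 0.0237) and GADD45B with -0.42 (adjusted p = 0.0208). Among 32 immediate-early and growth-response genes, 21 values were lower and 11 higher, none was a DEG and the list took 0.765% to 0.906% of counts in Tg1 and 0.744% to 1.07% in WT. ATF3, a stress-induced transcription factor, was at 276, 342 and 347 CPM in Tg1 and at 450, 289 and 514 CPM in WT (-0.38, adjusted p = 0.277). Without WT replicate 2, 8 of the 32 were lower and 2 higher as DEGs, 25% and 6.25% of the list against 3.12% and 4.26% of all genes, among them ATF3 with -0.58 (adjusted p = 0.0103), FOSL2 with -0.40 (adjusted p = 0.00771) and KLF6 with -0.38 (adjusted p = 0.0221). Over all 111 named genes, 49 were DEGs without WT replicate 2 and not with all libraries, 27 of them lower and 22 higher, and 0 were lost. In that fit 7.37% of all genes were DEGs, and most named genes were picked by their p in Tg1 against WT, so the 49 are a description. Those not given above were IER5, CRELD2, TNFAIP2, IFI35, IRF9, IFITM3, PSMB10, FADD and BAK1 (0.27 to 0.50). Lower were GADD45A, VPS13B and TP53INP1 (-0.35 to -0.28).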

How the data were processed

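RNA from 15 cultures of LLC-PK1 cells was sequenced by the study. The deposited table holds counts per pig gene, whole numbers made by the authors with Salmon against pig cDNA sequences of Ensembl, with no normalization; per the labels DESeq2 was also used, and versions are not given in the labels. How transcripts were summed to genes is not given in the sources used here, and reads of near-identical genes may be split by the estimate. Symbols came from the study's supplementary tables (1437 genes) or a reference table of gene names (11989 genes); chromosome positions are not given because the sources used here name an Ensembl release but no genome assembly.

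The genes at a mean CPM of at least 2 (11553 of 16660, holding 99.8% of counts) were tested in R 4.3.3 with edgeR 4.0.16: TMM normalization, 1 model of 5 group means over 15 libraries, glmQLFit and glmQLFTest, and Benjamini-Hochberg adjustment over all genes tested. A DEG had an adjusted p of at most 0.05 and an absolute log2 fold change of at least 0.26. With 3 libraries against 3, an exact permutation test of 1 gene could not go under 0.1. Alternatives used DESeq2 1.42.0, limma 3.58.1 and sva 3.50.0. Named genes were all DEGs, up to 8 in each direction among genes whose groups did not overlap, genes the study names, and up to 4 of each list by p; additions are marked as such. Members and lists were chosen with earlier results of these data known.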

Additional observations from a re-analysis of the deposited data

Results flagged for a closer look

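Tg1 differed from the mean of the other 2 mutants in 112 genes (25 higher, 87 lower) by edgeR's quasi-likelihood test, a test of whether the effect of Tg1 against WT differs from the mean effect of Tg2 and Tg3. Of the 111 genes named by the rules, 23 had an adjusted p of at most 0.05 there, 20 lower and 3 higher in Tg1, against 293 of all genes tested, 2.54%. Most of the named genes were picked by their p in Tg1 against WT, which uses the same Tg1 libraries, so the 23 are a description.

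Among the genes called against WT or next to the threshold, the log2 differences were -0.37 for DMXL1, -0.33 for AFF4, -0.29 for PIK3C2A, -0.29 for LRP6, -0.24 for PRKAR2A, -0.23 for ITPR2, -0.24 for ENSSSCG00000015531 and -0.20 for ARHGAP5, and 0.14 for ENSSSCG00000035518. LPP, the LIM protein of focal adhesions, had the widest difference of the 23, -0.79 ± 0.13 (SE, adjusted p = 0.0119). The osmotic stress factor NFAT5 had -0.46 (adjusted p = 0.012), the histone methyltransferase KMT2A -0.43 (adjusted p = 0.0227) and the actin oxidase MICAL2 -0.41 (adjusted p = 0.00573). PHIP had -0.35, the collagen receptor ITGA2 -0.34, the ubiquitin ligase CBL -0.32, the kinase TAOK1 -0.29, the collagen COL12A1 -0.27, the spindle motor KIF11 -0.24, the tankyrase TNKS -0.24 and the centriole kinase PLK4 -0.18. Higher in Tg1 were the secreted protein WFDC2 with 0.18 and the chaperone HSP90B1 with 0.15.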

How the results depend on the processing

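The 8 DEGs of Tg1 against WT kept their direction in every alternative run, but their number depended on the setting. It was 12 with no fold threshold, 8 with DESeq2 size factors and with a mean CPM of 1 or more, 2 with no filter on low counts, and 0 with a test against a log2 fold change of 0.26 (glmTreat, 106 genes at an unadjusted p under 0.05) or with only the groups compared (1243 at an unadjusted p under 0.05). It was 77 with DESeq2 (9 higher, 68 lower), 66 with a replicate block (8 higher, 58 lower), 84 with 1 surrogate variable (21 higher, 63 lower; chosen after seeing the data) and 1190 with limma voom and library weights (701 higher, 489 lower), where WT replicate 2 had a weight of 0.318 and WT replicate 1 of 2.57. Leaving out 1 library gave 0 to 852 DEGs, the 852 without WT replicate 2 holding all 8; the 2 WT libraries then left share the spread of the other groups. For Tg1 against the mean of Tg2 and Tg3, 112 genes became 293 with no fold threshold, 0 with glmTreat (109 at an unadjusted p under 0.05), 188 with DESeq2, 66 with only the groups compared, 207 with the replicate block, 284 with limma voom and 236 with the surrogate variable, and 2 (without Tg1 replicate 1) to 183 (without Tg2 replicate 3) with 1 library left out. The replicate numbers share no stated source, so they were not taken as pairs. In their deviations from the group means, same-numbered Tg1 and WT libraries correlated at 0.285, 0.324 and -0.166. Differently numbered ones ran from -0.464 to 0.366. With 3 libraries a group, these values cannot decide whether the numbers mark pairs. The causes of the differences between settings were not tested.

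Over the 111 named genes, 971 of the values under settings other than leaving out a library stayed on the same side, 106 passed the test anew and 24 lost it. Signs turned for 9 genes outside the fits that leave out a library, none of which passed the test in the reported fit; for RSAD2 and MX2 the reported values were 0.35 and 0.29, so the turn was not confined to values near 0. With limma voom MYC was at -0.017 and EGFL7 at -0.022. With the surrogate variable IER3 was at 0.0063, GADD45G at 0.089, CYTB at 0.0058, TAGLN at -0.0034, CD14 at -0.046, RSAD2 at -0.031 and MX2 at -0.011. With 1 library left out, the values ran from -0.035 to 0.10 for MYC, from -0.14 to 0.027 for IER3, from -0.032 to 0.091 for EGFL7, from -0.015 to 0.12 for AIF1, from -0.091 to 0.046 for CD3E and from -0.11 to 0.12 for CD14. At 3 wells a group, a DEG count of 0 does not show that a gene did not differ.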
